A study of Homo sapiens with 18 samples.

Results

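The genes of 2 enzyme families that crosslink collagen were followed through the 5 groups of this RNA-seq series, the lysyl oxidases LOX, LOXL1, LOXL2, LOXL3 and LOXL4 and the lysyl hydroxylases PLOD1, PLOD2 and PLOD3. These 8 of 62703 genes were selected on a measured value, because LOX was much higher with the hairpin against EZH2, and the other 7 were added as its families. Values of LOX that use the libraries of that contrast, shEZH2 or control shRNA, are therefore given as descriptions, with no test, so that LOX was tested under GSK126 alone. All samples were MDA-MB-231, an established triple-negative breast cancer cell line. Cells of the knockdown experiment received a short hairpin RNA (control shRNA, shEZH2 or shE2F1), which directs the breakdown of matching transcripts, by 24 h with lentivirus and 72 h in 2 µg/ml puromycin. The study lists a single hairpin sequence per target, so effects of a hairpin on other transcripts cannot be told apart from loss of its target. Cells of the drug experiment were kept for 72 h in DMSO or in 1 µM GSK126, which blocks the methyltransferase activity of EZH2. Of 18 sample records, 8 repeated another exactly, which left 10 distinct libraries, 2 in each group. The sources do not say that these libraries came from separate cultures, so that p-values measure only the spread between the libraries, which may be technical.

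Collagen is modified inside the cell and crosslinked outside it. Lysyl hydroxylases add a hydroxyl group to lysines of procollagen in the endoplasmic reticulum. PLOD1 acts mainly on the triple helix, PLOD2 on the telopeptides at its ends, and PLOD3 also attaches sugars to the hydroxylysines. Lysyl oxidases are secreted copper enzymes that turn lysines and hydroxylysines of collagen, and lysines of elastin, into reactive aldehydes, from which crosslinks form. LOX and PLOD2 are known targets of hypoxia-inducible factors, and both families have been studied for the stiffening of tumour matrix and for metastasis of breast cancer.

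Stretches upstream of a RefSeq start are shown for 3 members, because LOX was the member with the largest difference in shEZH2, while LOXL4 and PLOD1 were the members called lower there. Each runs from 250 bases before a RefSeq transcript start (GRCh38.p14) to that start or to the first base of a GENCODE exon. Capitals mark ACGTG, the core letters of hypoxia response elements, searched on both strands. The stretch of LOX is 96 bases at chr5:122078414-122078509, that of LOXL4 is 250 bases at chr10:98268195-98268444, both on the minus strand, and that of PLOD1 is 227 bases at chr1:11934467-11934693 on the plus strand. The stretch of PLOD1 lies inside the gene as GENCODE annotates it, from base 11934205, and outside its exons. Those of LOX and LOXL4 lie outside their genes.
LOX: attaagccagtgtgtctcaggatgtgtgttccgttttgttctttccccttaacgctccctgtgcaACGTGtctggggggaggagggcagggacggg
LOXL4: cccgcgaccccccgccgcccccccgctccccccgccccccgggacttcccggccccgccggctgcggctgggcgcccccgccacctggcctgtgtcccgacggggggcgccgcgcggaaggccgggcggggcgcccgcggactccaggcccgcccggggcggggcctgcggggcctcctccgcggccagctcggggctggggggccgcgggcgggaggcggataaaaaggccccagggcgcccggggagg
PLOD1: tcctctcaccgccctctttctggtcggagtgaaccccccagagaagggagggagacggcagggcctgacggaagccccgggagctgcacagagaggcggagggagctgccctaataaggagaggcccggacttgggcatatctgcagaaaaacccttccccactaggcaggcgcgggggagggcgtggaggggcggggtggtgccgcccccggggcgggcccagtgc
The stretch of LOX held 1 match and those of LOXL4 and PLOD1 held 0. Their GC content was 56.2%, 86.4% and 69.2%. Over the whole 250 bases before the start, LOX had 4 matches at the farthest upstream of its 3 RefSeq starts and 1 at each of the others, and PLOD2 had 2, on either strand and with no CACGTG among them. Of 35116 RefSeq promoter windows, 18.5% held at least 1 match in these bases, 7.52% at least 2 and 0.67% at least 4. LOXL1, LOXL3, LOXL4, PLOD1 and PLOD3 held 0, and no member with a window held TTTCGCGC or TTTGGCGC, forms of the E2F site, or TGAGTCA, the AP-1 site. Windows were at hand for 7 of the 8 members. A match is a string of letters and no evidence of binding.

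The libraries held 13198932 to 20055550 expected counts. EZH2 stood at 153 and 181 CPM in control shRNA and at 52.7 and 44.8 CPM in shEZH2, and E2F1 stood at 143 and 138 CPM in control shRNA and at 26.0 and 22.5 CPM in shE2F1, where CPM are counts relative to the TMM-scaled library total. E2F1 was also lower in shEZH2, at 62.5 and 32.3 CPM. Of 4 markers of the line, vimentin (VIM), CD44, KRT18 and AXL, the lowest level in any library was 424 CPM. Their sum was 6810 to 7420 CPM in control shRNA, 3380 to 3540 CPM in shEZH2 and 4920 to 4970 CPM in shE2F1. In shEZH2, VIM changed by -1.33 and AXL by -1.83, with edgeR adjusted p of 3.52e-06 and 5.33e-06, and in shE2F1 AXL changed by -2.23 (edgeR adjusted p 2.29e-06). CDH1, the epithelial cadherin that the line lacks or holds at a low level, rose by 2.23 in shEZH2 (edgeR adjusted p 0.00329) and by 3.92 in shE2F1 (edgeR adjusted p 6.41e-05) and reached at most 9.83 CPM. The part of these marker changes in the results was not tested. ESR1 had at most 0.216 CPM, PGR was at 0, and ERBB2, which a triple-negative line should hold at a low level, ranged from 46.1 to 90.3 CPM.

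Levels of different genes were compared in TPM, which takes transcript length into account. LOXL2, which crosslinks collagen IV of basement membranes among other substrates, was the highest member in every group, at a mean of 267 TPM in control shRNA, 207 TPM in shEZH2, 145 TPM in shE2F1, 293 TPM in DMSO and 252 TPM in GSK126. LOXL3 was the lowest in every group, at means of 0.85 to 2.24 TPM. LOX held place 7 of 8 in control shRNA, DMSO and GSK126 and place 6 in shE2F1. In shEZH2 it held place 2. In control shRNA the order was LOXL2, PLOD3, LOXL4, PLOD1, PLOD2, LOXL1, LOX and LOXL3, and the libraries of LOXL4 overlapped those of PLOD1 and of PLOD2. Overlap was also seen for LOX with PLOD3 and with PLOD2 in shEZH2, so that place 2 of LOX does not stand apart from places 3 and 4, for PLOD3 and LOXL4 in shE2F1 and for PLOD1 and PLOD2 in GSK126.

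The makeup of both families differed between groups when each gene was taken as a share of its family's summed TPM. LOX made up 1.65% and 1.59% of the lysyl oxidase total in the control shRNA libraries, 33.3% and 35.8% in shEZH2 and 6.59% and 5.52% in shE2F1. It made up 2.97% and 2.96% in DMSO and 4.02% and 3.87% in GSK126. The total itself was 424 and 319 TPM in control shRNA, 371 and 401 TPM in shEZH2 and 251 and 274 TPM in shE2F1, so that the shEZH2 libraries lay within the range of the control libraries and the shE2F1 libraries lay below it. Among the lysyl hydroxylases, PLOD2 took 23.1% and 21.5% in control shRNA and 43.8% and 43.4% in shEZH2, where PLOD1 took 12.1% in both libraries against 30.9% and 29.7% in control shRNA. These shares were not tested.

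**Figure D1:**
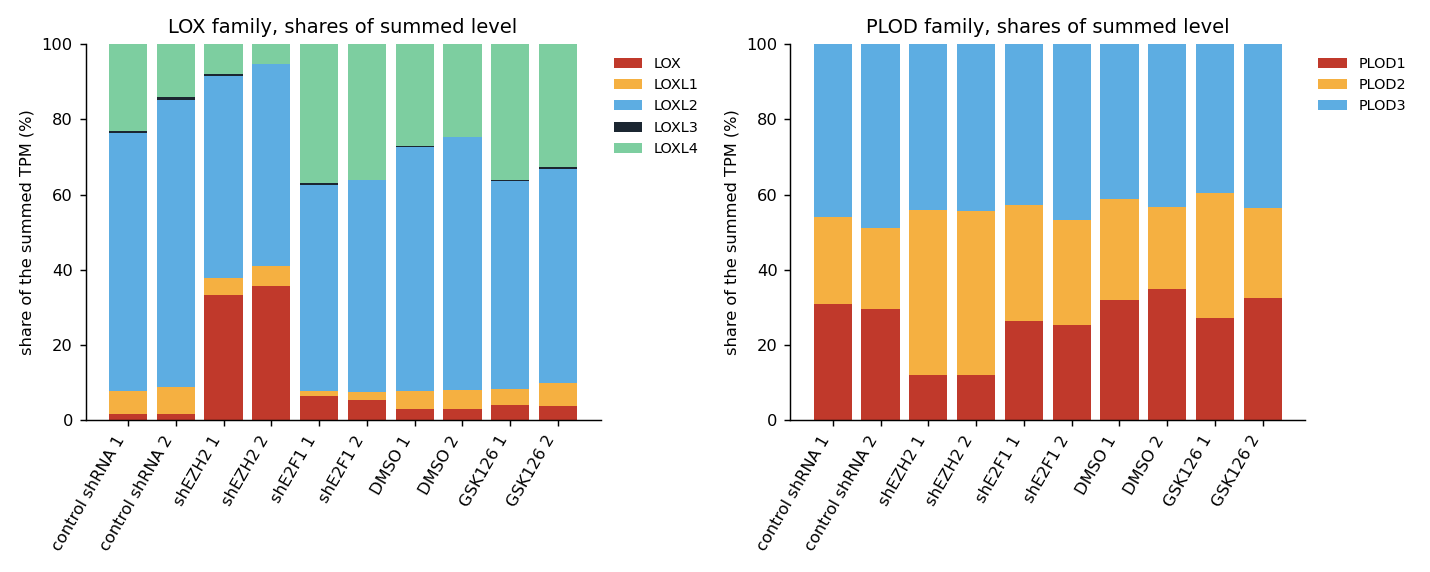
Share (%) of each gene in the summed TPM of its family, for the lysyl oxidases (left) and the lysyl hydroxylases (right), with 1 bar per library. LOX takes 33.3% and 35.8% of the lysyl oxidase bars in shEZH2 and at most 6.59% in any other library, and PLOD2 takes 43.8% and 43.4% of the hydroxylase bars in shEZH2.

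The EZH2 hairpin was compared with control shRNA to see how the enzymes stood with less EZH2, which methylates histone H3 within the Polycomb complex PRC2. LOX (ENSG00000113083, GRCh38 chromosome 5, 122063195 to 122078413, minus strand, 7 exons), the founding lysyl oxidase, stood at 19.7 and 14.2 CPM in control shRNA and at 316 and 383 CPM in shEZH2. The shE2F1 libraries had 37.8 and 33.6 CPM, the DMSO libraries 33.2 and 35.3 CPM and the GSK126 libraries 44.8 and 46.6 CPM. Both shEZH2 libraries lay above the other 8, and both control shRNA libraries lay below all others. In bulk RNA, more cells that express a gene and more RNA per cell cannot be told apart. The difference of shEZH2 from control shRNA was 4.35 ± 0.16 (SE) on the log2 scale, or 20.4-fold, which was place 43 from the top among 15373 genes tested. This is the value that LOX was chosen by.

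PLOD2 (ENSG00000152952, chromosome 3, 146035139 to 146163725, minus strand, 20 exons) was the hydroxylase that rose. It stood at 124 and 115 CPM in control shRNA and at 275 and 285 CPM in shEZH2, while shE2F1 had 147 and 141 CPM, DMSO 144 and 129 CPM and GSK126 188 and 143 CPM. The shEZH2 libraries lay above all others. The change was 1.22 ± 0.09 (SE, edgeR adjusted p 3.32e-06). Together with LOX it made up the members that were higher in shEZH2.

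LOXL4 and PLOD1 fell. LOXL4 (ENSG00000138131, chromosome 10, 98247690 to 98268194, minus strand, 15 exons), a lysyl oxidase with scavenger receptor domains, stood at 234 and 113 CPM in control shRNA and at 63.1 and 46.3 CPM in shEZH2. The groups did not overlap, but the control libraries were far apart. The change was -1.69 ± 0.27 (SE, edgeR adjusted p 0.000381), and it was -1.07 without control shRNA replicate 1 and -2.11 without control shRNA replicate 2. PLOD1 (ENSG00000083444, chromosome 1, 11934205 to 11975538, plus strand, 19 exons) stood at 126 and 123 CPM in control shRNA and at 57.6 and 58.7 CPM in shEZH2. Replicates of PLOD1 differed little in both groups. Its change was -1.11 ± 0.09 (SE, edgeR adjusted p 4.75e-06).

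The other 4 members did not meet the call rule of an adjusted p under 0.01 and more than 2-fold. LOXL2 (ENSG00000134013, chromosome 8, 23296897 to 23425328, minus strand, 14 exons) stood at 661 and 584 CPM in control shRNA and at 378 and 417 CPM in shEZH2, a difference of -0.66 ± 0.10 (SE, edgeR adjusted p 0.00023), short of 2-fold. LOXL1 (ENSG00000129038, chromosome 15, 73925989 to 73952137, plus strand, 7 exons), which works on elastin together with fibulin-5, stood at 27.8 and 21.5 CPM and at 14.8 and 17.7 CPM, a difference of -0.61 ± 0.17 (SE, edgeR adjusted p 0.0105). LOXL3 (ENSG00000115318, chromosome 2, 74532258 to 74555690, minus strand, 14 exons) stood at 3.39 and 3.18 CPM and at 1.51 and 1.27 CPM, from 20 to 64 counts a library. Its difference of -1.26 ± 0.40 (SE) had an edgeR adjusted p of 0.0205. Both shEZH2 libraries of LOXL3 lay between those of DMSO, at 1.75 and 1.24 CPM. PLOD3 (ENSG00000106397, chromosome 7, 101205977 to 101218420, minus strand, 19 exons) stood at 141 and 144 CPM in both groups, a difference of -0.01 ± 0.09 (SE) with a 95% interval from -0.20 to 0.19. In TPM, PLOD3 was 102 and 101 in control shRNA and 128 and 129 in shEZH2, where its assigned transcript length was also shorter.

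Of the 7 members with a test, 1 was called higher and 2 lower, beside 7.52% of all 15373 genes called higher and 10.7% called lower. The families were picked through this contrast, so nothing is read from that count.

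**Figure D2:**
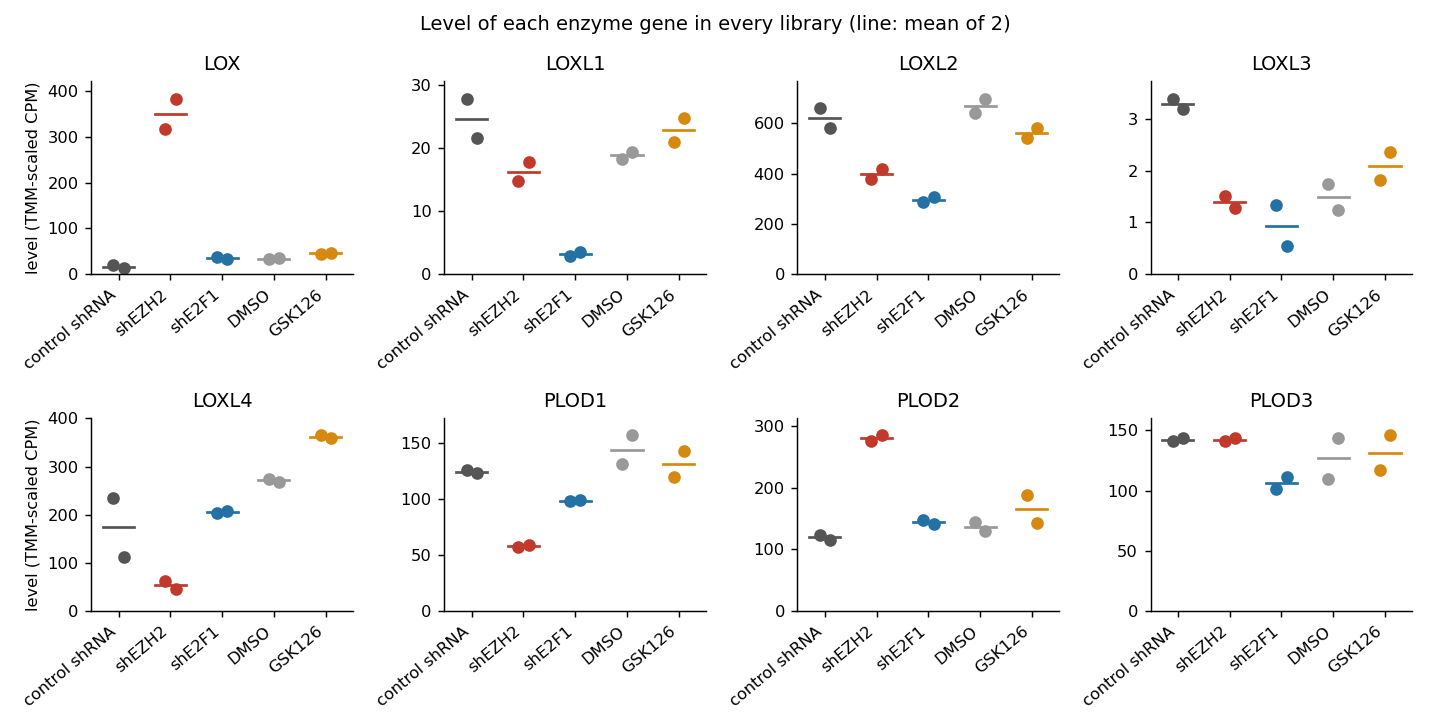
Level of each gene in TMM-scaled CPM (vertical axis, from 0) in every library, by group, with a point per library and a line at the mean of 2. LOX and PLOD2 are highest in shEZH2, LOXL4 and PLOD1 are lowest there, and LOXL1 is lowest in shE2F1, at 2.92 and 3.56 CPM.

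Differences in shEZH2 went along with GC content, the share of G and C in the longest transcript. Across 15366 genes, not independent of each other, log2 change and GC content had r = -0.239, against -0.018 in shE2F1 and 0.022 in GSK126. The members that were higher had the lowest GC content of the 8, at 35.5% for PLOD2 and 39.6% for LOX. The others ranged from 55.4% for LOXL3 to 67.6% for LOXL1. Tested genes of GC content like that of LOX had a median change of 0.22, those like PLOD2 0.19, those like PLOD1 -0.35 and those like LOXL1 -0.63. After each library was corrected for GC content and length, LOX stood at 4.15 and LOXL4 at -1.35 with an edgeR adjusted p of 0.000486. PLOD2 stood at 0.91 and PLOD1 at -0.72 after the correction, with edgeR adjusted p of 1.53e-05 and 6.26e-05, and both were then short of 2-fold. LOXL1 stood at 0.00 and PLOD3 turned to 0.46, with an edgeR adjusted p of 0.00279 for the latter. The part of GC content in these differences was not tested.

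**Figure D3:**
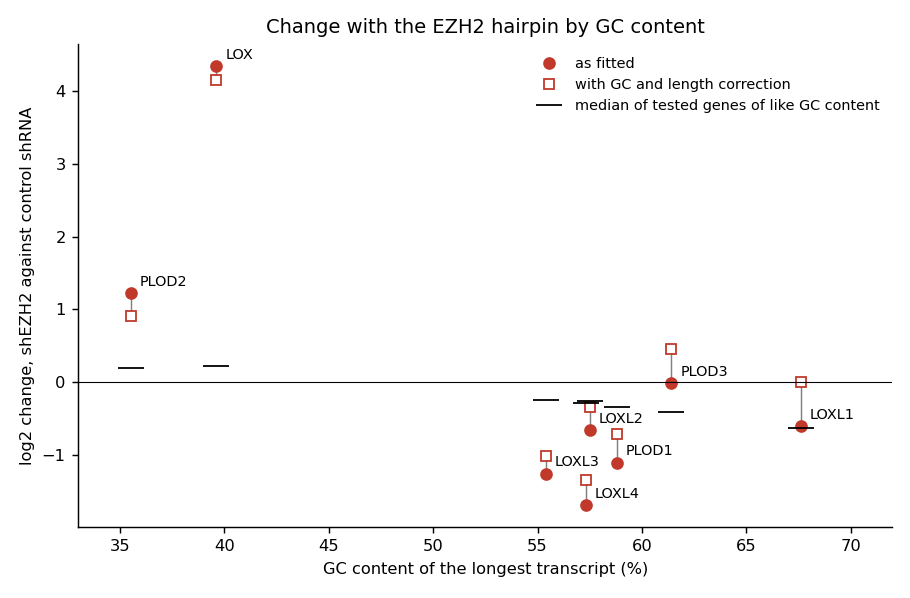
Log2 change of each gene between shEZH2 and control shRNA (vertical axis) against the GC content of its longest transcript in % (horizontal axis), as fitted (filled circles) and after correction for GC content and length (open squares), with the median change of tested genes of like GC content (black dashes). LOX and PLOD2, at 39.6% and 35.5% GC, stay above 0 after the correction at 4.15 and 0.91, and PLOD3 moves from -0.01 to 0.46.

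The E2F1 hairpin was compared with the same control to see how the enzymes stood with less E2F1, a transcription factor of the cell cycle. This contrast shares its control shRNA libraries with the contrast that chose LOX. LOXL1, LOXL2 and LOXL3 fell, while LOXL4 and the lysyl hydroxylases were not called. The largest change was that of LOXL1, from 27.8 and 21.5 CPM to 2.92 and 3.56 CPM. This fall of 2.94 on the log2 scale (SE 0.20, 7.67-fold, edgeR adjusted p 2.13e-06) was place 51 from the bottom among 15373 genes, and no library outside shE2F1 had less than 14.8 CPM. Genes on the opposite strand overlap exons of LOXL1 (LOXL1-AS1), LOXL2 (LOXL2-AS1), LOX (SRFBP1), LOXL3 (HTRA2 and DOK1), LOXL4 (an lncRNA with no symbol) and PLOD3 (ZNHIT1), and their reads could not be told apart if the counting ignored strand. ENTPD4 overlaps exons of LOXL2 on the same strand, where strand does not separate them.

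LOXL2 went from 661 and 584 CPM to 286 and 308 CPM, a change of -1.08 ± 0.10 (SE, edgeR adjusted p 1.46e-05), and the change was -0.99 without control shRNA replicate 1. LOXL3 went from 3.39 and 3.18 CPM to 1.34 and 0.539 CPM, a change of -1.79 ± 0.41 (SE, edgeR adjusted p 0.00468). The DMSO libraries of LOXL3, at 1.75 and 1.24 CPM, overlapped those of shE2F1. With 10 and 28 counts in the shE2F1 libraries, the call on LOXL3 was lost without shE2F1 replicate 2 (-1.30, edgeR adjusted p 0.0484), without control shRNA replicate 1 or 2 (edgeR adjusted p 0.0202 and 0.015) and with an offset for transcript length (edgeR adjusted p 0.0742). LOX differed from control shRNA by 1.06 ± 0.16 (SE), given with no test, and by 0.97 without shE2F1 replicate 1 and 0.86 without control shRNA replicate 2. The shE2F1 libraries of LOX, at 37.8 and 33.6 CPM, overlapped the DMSO libraries at 33.2 and 35.3 CPM.

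LOXL4 stood at 203 and 208 CPM in shE2F1, between its control libraries, and the sign of its difference of 0.23 ± 0.26 (SE) turned to -0.19 without control shRNA replicate 2. PLOD1 at 98.1 and 98.8 CPM differed by -0.35 ± 0.08 (SE, edgeR adjusted p 0.00693) and PLOD3 at 101 and 111 CPM by -0.43 ± 0.09 (SE, edgeR adjusted p 0.00264), both short of 2-fold. PLOD2 differed by 0.26 ± 0.09 (SE, edgeR adjusted p 0.0318). Of the 7 members with a test, 0 were called higher and 3 lower by edgeR and by DESeq2. Of all genes, edgeR called 5.6% higher and 5.96% lower. An unadjusted edgeR p under 0.05 was found for 6 of these members, beside 8113 of all 15373 genes. Fewer members were called when some single libraries were left out, which leaves a group without a replicate.

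**Figure D4:**
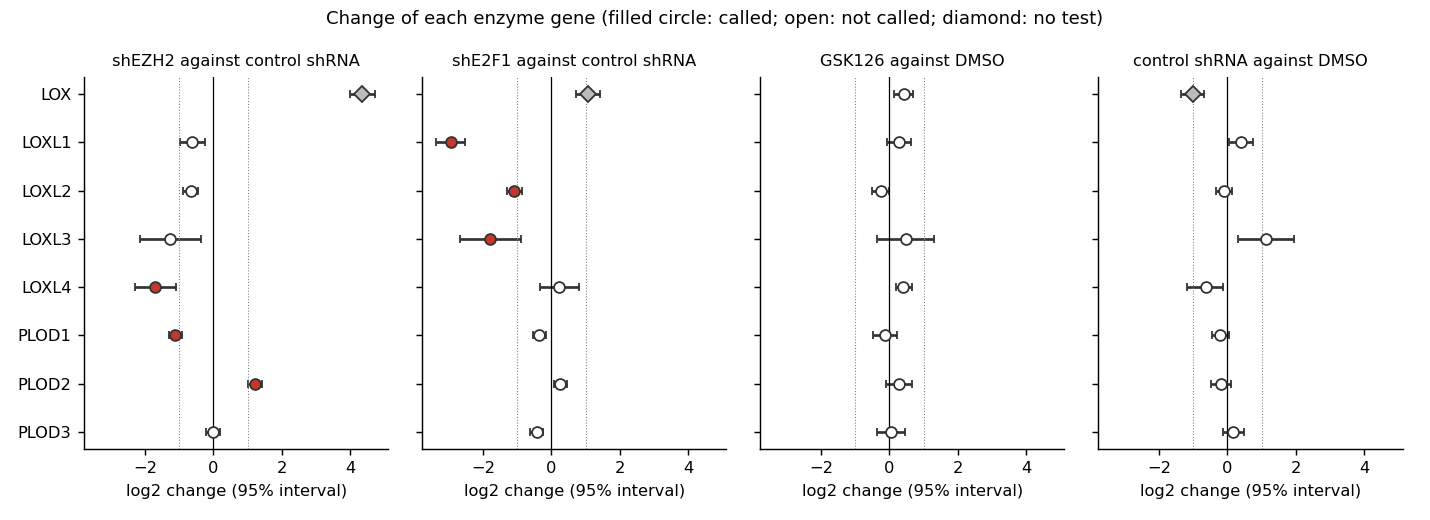
Log2 change with its 95% interval (horizontal axis) for each gene in 4 comparisons, with filled circles for called genes, open circles for genes not called, a diamond for LOX where it has no test, and dotted lines at a 2-fold change. LOXL1 stands at -2.94 in shE2F1 and LOX, with no test, at 1.06, and no gene is called under GSK126.

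Both knockdowns were compared with each other, in the fit of 6 libraries in which control shRNA enters the estimate of the spread and not the contrast. LOXL1 was 5.03-fold higher in shEZH2 than in shE2F1 (2.33 ± 0.20 SE, edgeR adjusted p 3.82e-06) and LOXL4 was 3.78-fold lower (-1.92 ± 0.27 SE, edgeR adjusted p 0.000127). LOX differed by 3.29 ± 0.15 (SE), given with no test. PLOD2 at 0.95 ± 0.09 and PLOD1 at -0.76 ± 0.09 (SE) passed the adjusted p, at 6.07e-06 and 2.8e-05 in edgeR, but not 2-fold. LOXL2 at 0.42 and PLOD3 at 0.42 did likewise, and LOXL3 at 0.52 had an edgeR adjusted p of 0.33. Of the 7 members with a test, 1 was called higher and 1 lower, beside 10.4% and 12.9% of all genes.

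GSK126 was compared with DMSO to see whether blocking the enzyme activity of EZH2 changed these genes. In the fit without a replicate block none of the 8 members was called by edgeR or DESeq2, 3 had an unadjusted p under 0.05, and edgeR called 0% of 14632 genes, of which 577 had an unadjusted p under 0.05 and DESeq2 called 11. LOX stood at 33.2 and 35.3 CPM with DMSO alone and at 44.8 and 46.6 CPM with the drug, a difference of 0.42 ± 0.12 (SE) with a 95% interval from 0.13 to 0.70 and an edgeR adjusted p of 1. LOXL4 stood at 274 and 269 CPM with DMSO alone and at 365 and 359 CPM with the drug, a difference of 0.41 ± 0.10 (SE) with a 95% interval from 0.18 to 0.65 and an edgeR adjusted p of 0.929. LOXL2 stood at 641 and 699 CPM with DMSO alone and at 541 and 581 CPM with the drug, a difference of -0.26 ± 0.10 (SE, edgeR adjusted p 1). For these 3 members, as for LOXL1 and LOXL3, the groups did not overlap. The share of all genes without overlap was not counted, so nothing is read from this. PLOD1, PLOD2 and PLOD3 had overlapping groups and differences of -0.13, 0.28 and 0.05. The intervals of LOX, LOXL1, LOXL2, LOXL4 and the lysyl hydroxylases all lay inside 2-fold, and that of LOXL3 reached 1.29. Replicate differences of DMSO and GSK126 correlated at r = 0.75, which this fit leaves in the spread. Within replicates 1 and 2, LOX differed by 0.43 and 0.40, LOXL4 by 0.41 and 0.42, LOXL2 by -0.25 and -0.27 and PLOD2 by 0.39 and 0.15. With a replicate block, given at the end of the text, these members had far smaller adjusted p but stayed short of 2-fold. That fit leaves little from which to estimate the spread of a gene, so nothing is read from the size of those p.

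The effect of shEZH2 was set against that of GSK126 in a fit of all 10 libraries. LOXL4 differed most among the tested members, at -2.09 ± 0.35 (SE, edgeR adjusted p 0.000772), being lower with the hairpin and at 0.41 with the drug. PLOD1 at -0.97 ± 0.17 and PLOD2 at 0.95 ± 0.18 (SE) had edgeR adjusted p of 0.00106 and 0.00177 and were short of 2-fold. LOXL1 at -0.87 and LOXL3 at -1.72 had edgeR adjusted p of 0.0121 and 0.0272. LOXL2 at -0.39 and PLOD3 at -0.04 had 0.0622 and 0.885, and LOX, with no test, differed by 3.95 ± 0.22 (SE). Of 7 members with a test, 0 were called higher and 1 lower by edgeR, beside 5.13% and 8.67% of all 15773 genes. That count of members rose when some single libraries were left out, which leaves a group without a replicate.

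The reference groups of both experiments were compared as well. Of the 7 members with a test, 0 were called by edgeR or DESeq2, beside 0.9% of 15773 genes called in either direction by edgeR. An unadjusted edgeR p under 0.05 was found for 3 of these members, beside 3964 of the 15773 genes. LOX differed by -1.01 ± 0.16 (SE) between control shRNA and DMSO, given with no test because a low control level also enters the contrast that chose it. Without control shRNA replicate 2 this difference was -0.80. LOXL4 stood at -0.64 ± 0.24 and LOXL3 at 1.12 ± 0.37 (SE), with edgeR adjusted p of 0.122 and 0.0866. LOXL4 passed the call rule only when control shRNA replicate 1 was left out, at -1.26 with an edgeR adjusted p of 0.00306. Viral transduction, selection and experiment cannot be told apart in this comparison.

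The authors' files also give a gene length weighted by estimated transcript abundance. For LOX it was 4190 and 3992 bases in control shRNA, 4315 and 4338 bases in shEZH2 and 3750 and 3793 bases in shE2F1, against 3909 to 3946 bases in the drug experiment. Both shEZH2 libraries were above and both shE2F1 libraries below all the others. For LOXL2 it was 3244 and 3197 bases in shEZH2 and 3351 to 3498 bases in the other libraries. For PLOD3 it was 2153 and 2103 bases in control shRNA, 1950 and 1913 bases in shEZH2 and 1835 and 1836 bases in shE2F1. The drug experiment had 1956 and 2168 bases in DMSO and 2030 and 2114 bases in GSK126, so DMSO replicate 1 came close to shEZH2. LOXL4 had 3597 bases in every library. No test was run on these lengths, which are estimates from short reads.

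Other genes that modify or process collagen were counted from a list of 28 without the members, of which 24 were tested. In shEZH2, 1 was higher and 2 were lower, with a median change of 0.11 against -0.02 over all genes tested, of which 7.52% were called higher and 10.7% lower. PCOLCE2, an enhancer of procollagen C-proteinase, rose by 1.08 (edgeR adjusted p 0.00537), while P3H4, a partner of lysyl hydroxylation in the endoplasmic reticulum, fell by 1.57 and the transglutaminase TGM2 fell by 1.01, with edgeR adjusted p of 0.000391 and 1.04e-05. In shE2F1, 0 were higher and 7 were lower by edgeR, with a median of -0.30 against 0 over all genes, of which 5.6% were called higher and 5.96% lower. Those named by size were PCOLCE2 at -2.41, P3H4 at -1.92, the prolyl isomerase PPIB at -1.62 and the collagen galactosyltransferase COLGALT1 at -1.54, with edgeR adjusted p from 1.62e-06 to 0.000219. PCOLCE2 was thus called in opposite directions in both knockdowns.

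Substrates and their partners, collagens and elastic fibre genes, were counted from a list of 21, of which 14 were tested. In shEZH2, 5 were higher and 0 lower by edgeR, beside 7.52% and 10.7% of all genes, with a median change of 0.70. COL5A2 rose by 2.35, fibulin-5 (FBLN5) by 2.21, COL1A1 by 1.49 and COL12A1 by 1.03, with edgeR adjusted p from 2.52e-05 to 0.00942. FBLN5 was near the floor, at a mean of 0.203 CPM in control shRNA and 0.96 CPM in shEZH2. Its difference in shE2F1 was 2.20 (edgeR adjusted p 0.0111), not called. In shE2F1, 2 were higher and 3 lower, beside 5.6% and 5.96% of all genes, with a median of -0.39. COL6A3 at -3.90, COL7A1 at -1.79 and COL4A1 at -1.28 fell, and COL12A1 at 1.38 rose there, with edgeR adjusted p from 5.61e-06 to 3.46e-05. COL1A1 is also on the list of 6 fibroblast markers, whose summed level was 49.8 and 70.5 CPM in shEZH2, 22.1 and 27.3 CPM in control shRNA and 20.0 and 20.2 CPM in shE2F1. LUM, at a mean of 0.192 CPM in control shRNA, rose to a mean of 4.17 CPM with the EZH2 hairpin and 3.89 CPM with the E2F1 hairpin (4.34 and 4.25 on the log2 scale, edgeR adjusted p 2.54e-05 and 3.9e-05), and PDGFRB fell by 1.16 in shEZH2 (edgeR adjusted p 0.00965). Of the other fibroblast markers, DCN was at 0 in every library, THY1 had at most 0.0754 CPM and PDGFRA at most 0.24 CPM. Endothelial markers summed to 0.53 and 0.6 CPM in control shRNA, 2.86 and 3.4 CPM in shEZH2 and 1.24 and 1.82 CPM in shE2F1. Of these, VWF was called higher in both knockdowns (3.45 and 2.43, edgeR adjusted p 0.000488 and 0.00772), and CDH5 had at most 0.0754 CPM in any library. Leukocyte markers summed to at most 1.88 CPM. The part of other cell types in these results was not tested.

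Targets of hypoxia-inducible factors, the group to which LOX and PLOD2 are known to belong, were counted from a list of 15 other genes, all tested. In shEZH2, 4 were higher and 0 lower by edgeR, beside 7.52% and 10.7% of all genes, with a median change of 0.40. ANGPTL4, an inhibitor of lipoprotein lipase, rose by 4.79, the pyruvate dehydrogenase kinase PDK1 by 1.43, the oxygen-sensing prolyl hydroxylase EGLN3 by 1.20 and NDRG1 by 1.18, with edgeR adjusted p from 1.11e-07 to 0.000568. The other 11 were not called, and their differences lay on both sides of 0. Below it were the glucose transporter SLC2A1 at -0.86, LDHA at -0.47 and CA9 at -0.79, with edgeR adjusted p of 5.4e-05, 0.00388 and 0.0286. Above it were KDM3A at 0.818, ADM at 0.765 and HK2 at 0.533, with edgeR adjusted p of 0.00015, 0.000561 and 0.000845. Others also lay on each side, and those named here were picked after their values were seen. In shE2F1, 0 were higher and 6 lower by edgeR, beside 5.6% and 5.96% of all genes, with a median of -0.67. The carbonic anhydrase CA9 at -2.75, SLC2A1 at -2.45, ADM at -2.02 and PFKFB4 at -1.86 fell, with edgeR adjusted p from 4.46e-07 to 5.17e-05. Under GSK126, 0 genes of the 3 lists were called by edgeR, as of all genes. In control shRNA against DMSO, ANGPTL4 at -1.14 and VEGFA at -1.14 were called lower, with edgeR adjusted p of 0.00825 and 0.000136.

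The genes whose pattern was most like that of LOX over the 10 libraries were sought among 10758 with a mean of at least 5 CPM. They were STC1 (r = 0.988), KDM1B (0.987), PITPNC1 (0.982), EDN2 (0.982) and LDAF1 (0.981). Those most like PLOD2 were SH3D19 (0.991), KDM1B (0.987), NFXL1 (0.972), RAB11FIP1 (0.972) and NUAK1 (0.971), and LOX itself had r = 0.966 with PLOD2. The 2 shEZH2 libraries stood far from the rest for LOX, so these values describe that gap and carry no p. EDN2, an endothelin, went from a mean of 3.4 CPM in control shRNA to 51.4 CPM in shEZH2, and STC1, a secreted glycoprotein, from 64.3 CPM to 252 CPM. Of the members, PLOD1 had r = -0.853 and LOXL4 r = -0.705 with LOX, while LOXL1 had r = 0.010. By Spearman rank correlation, PLOD1 had -0.467, LOXL4 -0.176 and LOXL1 -0.333.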

How the data were processed

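Strand-specific libraries of poly(A)-selected MDA-MB-231 RNA were sequenced. As the study's methods state, reads were mapped by the authors with STAR (2.7.2b in the submitters' processing notes, while the methods name a later version) to hg38 with an Ensembl annotation and counted them with RSEM (1.3.1). Whether the counting used strand is not given in the sources used here. The deposited files hold expected counts, in which a read that fits several genes is divided, and TPM, scaled by length and library. They also hold weighted and effective gene lengths in bases and a posterior standard deviation of the count, which for the members was at most 0.14 counts. Each library was used once, and groups came from the labels.

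Expected counts were rounded and tested in R 4.3.3 with edgeR 4.0.16 (filterByExpr, TMM, quasi-likelihood F-test, Benjamini-Hochberg adjustment over all genes). The 6 knockdown libraries, the 4 drug libraries and all 10 libraries were fitted without covariates. The call rule was an adjusted p below 0.01 with more than 2-fold, as in the study, whose tool, DESeq2 (1.42.0), was an alternative. The biological coefficients of variation were 0.095, 0.126 and 0.11. At these depths 0 counts leave room for 0.15 to 0.227 CPM, counting error alone.

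The members and gene lists were chosen with earlier results of these data known. Named are the 8 members, EZH2 and E2F1, up to 4 called genes per list and comparison with the largest change, and the 5 genes most like LOX and PLOD2 by Pearson correlation of log2 CPM (prior count 2). Annotation was GENCODE 44, which held 62625 of 62703 identifiers (99.9%). Of the 50-base stretches of each member, at most 1.35% occur in another gene. On simulated data for shEZH2 with 14450 genes, 98% of 4-fold and 82% of 2.5-fold changes were recovered, with 1 false call. Those counts had 200 changed genes and the spread that the fit itself had estimated. They do not show how the test did on the real libraries. Alternatives were other size factors, filters, thresholds and fits, a replicate block, length and GC corrections (splines with 5 degrees of freedom) and leaving out each library.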

Additional observations from a re-analysis of the deposited data

How the results depend on the processing

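The alternatives were applied to the members in each comparison, except that the filter on a mean of 50 counts removed LOXL3. Of 698 values, 637 stayed the same, 9 lost the call, 22 gained it, 13 of LOX without a test moved by more than the spread between replicates, and 17 changed sign. The same means direction and side of the threshold or, for LOX without a test, direction and a shift within that spread. Where only the thresholds were changed, the values were those of the main fit and could not change sign. With an adjusted p under 0.05 and no fold requirement, members called were 6 in shEZH2, 6 in shE2F1, 6 between both knockdowns and 5 for shEZH2 minus GSK126, each of 7 with a test. That rule also called 8550, 6879 and 9267 of all 15373 genes and 5780 of 15773. With the GC and length correction, members called were 1 in shEZH2, beside 2489 of all 15373 genes. With the replicate block added they were 1, beside 2413. With no filter on low counts, 2 were called for shEZH2 minus GSK126. Leaving out a library also moved the number of members called in shE2F1, in control shRNA against DMSO and for shEZH2 minus GSK126. No share of all genes is given for the unfiltered fit or for these, so nothing is read from them. The cause was not tested.

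Most sign changes were those of PLOD3, whose differences were near 0. In shEZH2 it was 0.01 with DESeq2 or its size factors, 0.00 with a mean of at least 50 counts or without shEZH2 replicate 1, 0.16 with the length offset, 0.46 with the GC correction with or without the block, and -0.03 to 0.01 when a library was left out. When a library was left out it was -0.12 to 0.25 under GSK126 and -0.02 to 0.37 in control shRNA against DMSO. For shEZH2 minus GSK126 it was 0.13 with the length offset and without DMSO replicate 1, 0.44 with the GC correction, 0.45 with the block added, and 0.12 without GSK126 replicate 2. LOXL4 in shE2F1 was -0.19 without control shRNA replicate 2 and 0.85 without control shRNA replicate 1.

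The replicate numbers are shared between groups, but no label says that they mark a batch. The replicate difference of DMSO correlated with that of GSK126 at r = 0.75, against 0.03 to 0.19 within the knockdown experiment. With the replicate block, members called stayed at 3 in shEZH2, 3 in shE2F1 and 0 under GSK126, while genes called under GSK126 rose to 68. There LOXL4 at 0.41, LOX at 0.41, PLOD2 at 0.28 and LOXL2 at -0.26 had edgeR adjusted p of 1.72e-12, 1.64e-05, 8.3e-06 and 2.75e-09, still short of 2-fold. The drug libraries are few for a fit with groups and a block, so these p rest largely on a spread shared across genes. PLOD2 differed by 0.39 within replicate 1 and by 0.15 within replicate 2, a gap that its p does not reflect. LOX, LOXL4 and LOXL2 differed less between replicates. Nothing is read from the size of these p. The order of members by level was the same with CPM per kilobase of effective length. Within a library that measure is proportional to TPM, so this is no separate check. Of the 5 genes most like LOX and the 5 most like PLOD2, Spearman correlation kept 1 each. Depth limits LOXL3, with 10 to 64 counts a library. Leaving out a library leaves a group with 1, assumed to vary like the others.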
